A study of Homo sapiens with 90 samples.

Results

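The genes described here build the cornified envelope and the desmosome, the structures that toughen and join the cells of stratified epithelium. There were 40 of them, chosen by gene symbol with keratins left out: small proline-rich proteins, other envelope proteins, transglutaminases, protease inhibitors, S100 proteins, desmosomal cadherins, desmosomal plaque proteins and envelope plakins. Each gene was read from its probe with the highest mean over all 90 arrays, and 33 of the 40 had a mean over 4.24 on the log2 scale, the limit set here for a dim probe. These 33 were tested among 12735 genes over that limit, of 20036 genes with a probe that names 1 gene.

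The cells were BxPC-3, an established human pancreatic adenocarcinoma line, starved of serum and then given either 10 µg/ml cetuximab, an antibody against the epidermal growth factor receptor (EGFR), or the negative control. RNA was taken at time 0, at 7 early times (5, 10 and 30 min and 1, 2, 4 and 8 h) and on each of days 1 to 7. Each arm had 3 arrays at each of the 15 times, 90 in all, and both arms were starved before time 0. BxPC-3 is a single tumour line grown in plates, and the labels do not say whether the 3 arrays of a group came from separate cultures, so p-values measure only the spread between these arrays, which may be technical. Arrays of a group correlated at 0.978 to 0.989 over all probes.

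In skin and other squamous epithelia, keratinocytes leaving the basal layer switch on envelope precursors such as involucrin and the small proline-rich proteins, and transglutaminases cross-link them under the plasma membrane. Desmosomes hold neighbouring cells together through cadherins of the desmoglein and desmocollin families, which bind plakoglobin and plakophilins and, through desmoplakin, the keratin filaments. EGFR signalling is known to act on keratinocyte differentiation, and pancreatic ducts themselves are lined by a simple epithelium that does not cornify.

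Start regions are shown for the 3 called members with the largest differences between the arms over days 1 to 7 among those with a RefSeq window. All 3 are small proline-rich genes. SPRR2D and PI3, with differences of 0.55 and 0.38 log2 units over those days, had no window and are not shown. The windows run from 250 bases before to 50 bases after the start, as RefSeq gives them for GRCh38.p14. SPRR1B lies at chr1:153030953-153031252 on the plus strand, SPRR1A at chr1:152983831-152984130 on the plus strand and SPRR2F at chr1:153113467-153113766 on the minus strand. Each is printed 5′ to 3′ along its gene, with matches to the AP-1 motif TGANTCA and to the TATA box TATAAA in capitals.
SPRR1B: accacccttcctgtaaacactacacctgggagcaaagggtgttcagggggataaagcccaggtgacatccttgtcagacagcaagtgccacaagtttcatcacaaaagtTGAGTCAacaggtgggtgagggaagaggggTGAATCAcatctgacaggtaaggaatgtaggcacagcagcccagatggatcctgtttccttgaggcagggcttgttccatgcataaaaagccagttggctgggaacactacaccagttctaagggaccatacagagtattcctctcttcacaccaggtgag
SPRR1A: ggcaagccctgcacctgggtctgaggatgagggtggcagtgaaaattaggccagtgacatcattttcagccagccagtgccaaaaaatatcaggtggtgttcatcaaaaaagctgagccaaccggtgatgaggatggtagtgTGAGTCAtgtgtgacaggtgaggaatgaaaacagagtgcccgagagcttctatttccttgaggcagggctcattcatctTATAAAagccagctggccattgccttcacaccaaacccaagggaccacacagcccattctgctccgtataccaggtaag
SPRR2F: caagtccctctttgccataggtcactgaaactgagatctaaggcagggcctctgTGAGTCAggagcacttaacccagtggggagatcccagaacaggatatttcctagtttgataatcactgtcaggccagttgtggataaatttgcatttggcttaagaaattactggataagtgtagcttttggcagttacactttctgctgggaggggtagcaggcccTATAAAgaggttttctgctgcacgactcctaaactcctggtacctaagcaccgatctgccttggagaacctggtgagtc
The SPRR1B window held AP-1 matches that began 141 and 111 bases before the start, the SPRR1A window 1 that began 108 bases before it, and the SPRR2F window 1 that began 196 bases before it. The TATAAA match began 29 bases before the start in SPRR1A and in SPRR2F. Over both strands, TGANTCA occurred in all 5 windows of small proline-rich members, in 8 of 27 windows of tested members (29.6%) and in 7.71% of all 35116 windows of this length. TATAAA occurred in 4 of the 5, in 33.3% of the windows of tested members and in 11.5% of all windows. A further motif, the TEAD site GGAATG, occurred in 3 of the 5, in 22.2% of the windows of tested members and in 14% of all. These matches are letters in a window, and binding was not measured. RefSeq windows were found for 28 of the 40 members.

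Most members lay over the limit in these cells, but some classical late markers did not. The members just inside the limit were IVL (mean 4.27), which encodes involucrin, SPRR2F (4.29) and S100A8 (4.33), and those just outside were CDSN (4.16), which encodes corneodesmosin, and CRNN (4.06), which encodes cornulin. The other members under the limit were CALML3, KRTDAP, S100A7, SBSN and SPRR2E, with means of 3.95 to 3.99. Single arrays of these 7 genes ranged from 2.99 to 4.67, and no group mean rose above 4.46, in the range that holds the bulk of all values (60.8% lay between 3.5 and 4.5). These 7 genes were not tested with the others, and at this signal a change in them can be missed. In a fit over all probes, S100A7 rose by 0.068 ± 0.021 per day over days 1 to 7 in controls (adjusted p = 0.0114). With cetuximab its slope was 0.023 ± 0.021 (adjusted p = 0.558). A further 6 members were tested with a mean between the limit and 4.5. They were IVL, SPRR2F, S100A8, CALML5 (4.35), SPRR2A (4.36) and TGM5 (4.40). SPRR2D (4.51) and TGM3 (4.58) lay just above that range. In these dim members a small change can be missed. All 7 ductal and simple epithelial markers of a fixed list were over the limit, with a mean level of 9.43 to 10.08 over single arrays. Of 10 leukocyte and myeloid markers on the array 3 were over the limit, at a list mean of 4.53 to 4.84, and 4 of 5 fibroblast markers lay just over it, at a list mean of 3.97 to 4.49.

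The first question was whether the arms differed over days 1 to 7. Averaged over the 7 days, with 21 arrays per arm, 10 of the 33 tested members were lower with cetuximab and 7 were higher (adjusted p under 0.05, limma over all genes), against 5.96% of all genes lower and 7.39% higher. The members did not move one way: their median difference was -0.02, and the median over all genes was 0.0032. SPRR1B, SPRR1A and SPRR3 fell below the controls, while SPRR2D, SPRR2F and the elastase inhibitor gene PI3 rose above them. All differences were under 1 log2 unit, and no member separated the 21 arrays of one arm from those of the other. In bulk RNA, fewer cells that make a transcript and less of it per cell cannot be told apart.

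Day by day, 21 of 231 pairs of a member and a day were called, or 9.09% against 1.7% of all gene and day pairs. They were 9 lower and 12 higher and fell on 11 members. PI3, SPRR2D and SPRR1A each held 4 of them.

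**Figure D1:**
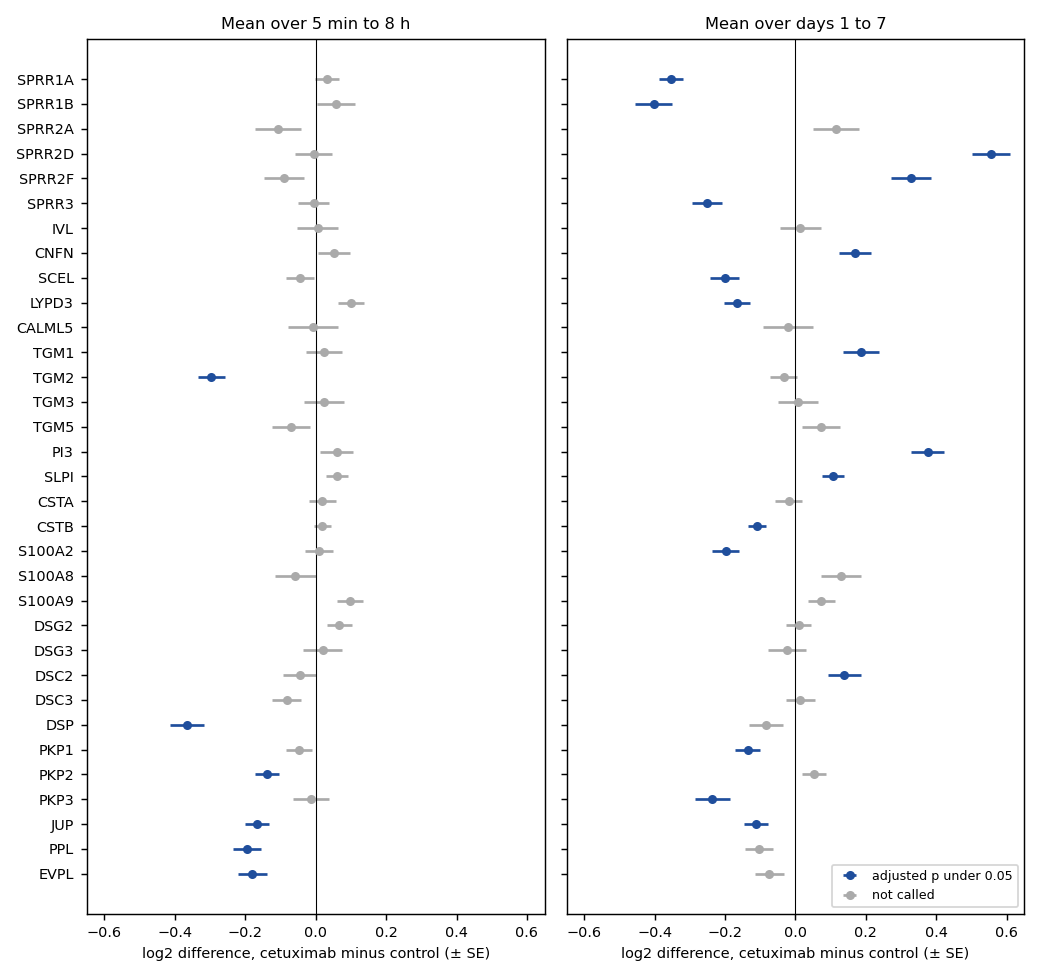
Difference between cetuximab and control for each of the 33 tested members, averaged over the early times (left) and over days 1 to 7 (right), in log2 units with the SE as bars; blue points have adjusted p under 0.05. Early calls were 6, all lower, and late calls were 10 lower and 7 higher.

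Among the small proline-rich genes, whose products are cross-linked into the envelope, SPRR1B showed the largest decrease. Its control arrays over days 1 to 7 had a lowest, median and highest log2 level of 5.03, 6.19 and 7.41, and the cetuximab arrays 4.86, 5.80 and 6.95. The ranges over the week overlapped. In both arms the level rose from day 1 to day 2 and then fell to day 6. The group mean was lower with cetuximab on all 7 days, and 1 of these days was called. The difference was -0.40 ± 0.054 (SE, adjusted p = 1.4e-08), a 0.756-fold level. It was widest on day 3, at -0.74, and on day 7 it was -0.05, when the control arrays read 5.35, 5.03 and 5.29 and the cetuximab arrays 5.17, 5.15 and 5.20. The arms overlapped on that last day and also on days 1 and 4.

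SPRR1A was lower on all 7 days as well. Its control arrays ranged from 7.81 through a median of 8.47 to 8.67, and its cetuximab arrays from 7.71 through 7.95 to 8.57, a difference of -0.35 ± 0.034 (adjusted p = 1.57e-13). On day 1 the arms overlapped, at 7.84, 7.81 and 7.89 in controls and 7.85, 7.74 and 7.78 with cetuximab. On day 4 the controls read 8.20, 8.11 and 8.27 and the cetuximab arrays 7.94, 7.93 and 7.97, and on day 7 the controls read 8.52, 8.56 and 8.57 against 8.21, 7.97 and 8.21. All 3 cetuximab arrays lay below all 3 controls on each of days 3 to 7, a separation on at least 5 days in this direction that 0.809% of all genes showed. It passed the test on 4 days, with day 5 the widest at -0.70. SPRR3 gave -0.25 ± 0.043 (adjusted p = 6.32e-06), with control arrays from 5.90 through 6.27 to 7.10 and cetuximab arrays from 5.27 through 5.98 to 7.19. It stood slightly above the controls on day 1, at 0.10, and below them on the other 6 days, by 0.59 on day 5.

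SPRR2D went the other way. On day 2 its control arrays read 4.97, 4.93 and 4.91 and its cetuximab arrays 5.41, 5.70 and 6.07, and on day 4 the controls read 4.55, 4.29 and 4.28 against 5.03, 5.15 and 5.37. All 3 cetuximab arrays were above all 3 controls on 6 of the 7 days, day 3 being the exception, and 1.19% of all genes were separated upward on at least 5 days. The mean difference of 0.55 ± 0.053 (adjusted p = 2.39e-13, 1.47-fold) was the largest of any member in either direction. The SPRR2D control median over the week, 4.43, lay in the range that holds the bulk of all values. SPRR2F rose by 0.33 ± 0.057 (adjusted p = 7.18e-06), from control arrays of 3.95, 4.27 and 4.82 (lowest, median, highest) to cetuximab arrays of 4.23, 4.63 and 5.02. Its control levels lay in the range that holds most values on the array. It passed the limit for dim probes through the cetuximab arrays of days 1 to 7, whose mean was 4.62. The late control mean was 4.29, and the early means were 4.17 in controls and 4.09 with cetuximab. In a fit over all probes, without that limit, its late difference had adjusted p = 2.92e-05. SPRR2A was not called, at 0.12 ± 0.065 (adjusted p = 0.284). The SPRR2 genes are near-identical in sequence, and which of them a probe reads is uncertain. A second SPRR2D probe, at a mean of 4.24, gave 0.02.

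**Figure D2:**
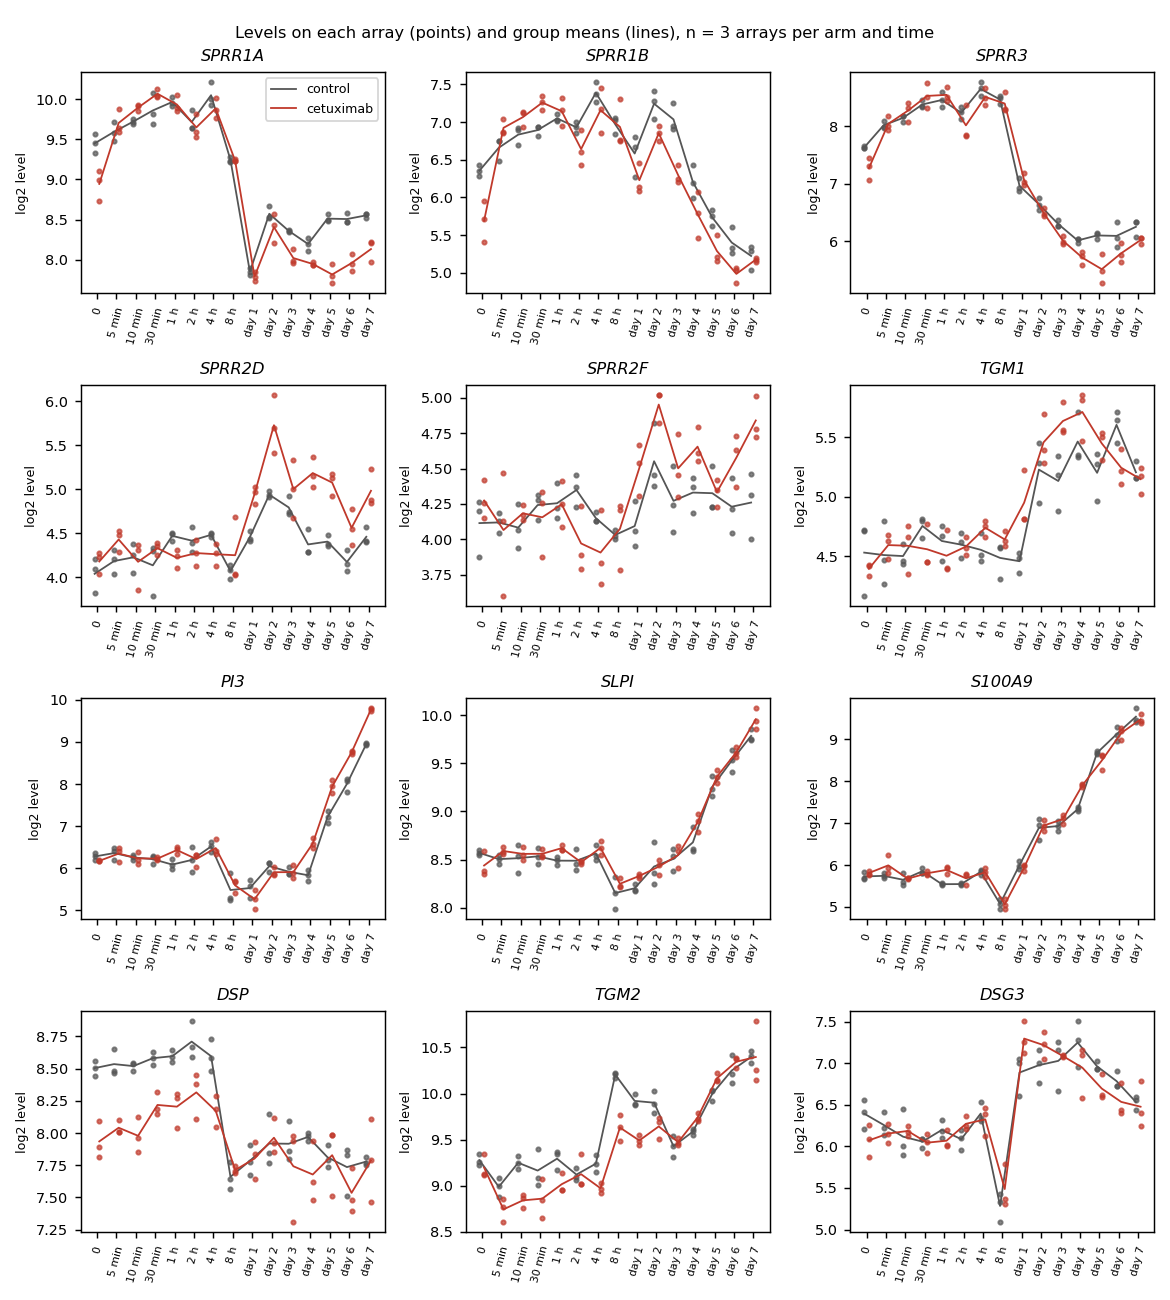
Log2 level of 12 members on every array (points) and as group means (lines) in control (grey) and cetuximab (red) cells; the 15 times are evenly spaced along the axis. SPRR1A falls between 4 h and day 1 in both arms, S100A9 climbs from day 1, PI3 climbs after day 3 with cetuximab and after day 4 in controls, and SPRR2D is higher with cetuximab on day 2.

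Of the 5 other envelope and late differentiation genes over the limit, 2 were lower and 1 was higher. SCEL, which encodes the envelope precursor sciellin, stood at -0.20 ± 0.041 (adjusted p = 0.000156), with control arrays of 6.37, 7.13 and 7.45 (lowest, median, highest) against 6.30, 6.77 and 7.32. A second SCEL probe, at a mean of 6.49, gave -0.13 (adjusted p = 0.191 in a fit over all probes). LYPD3, a GPI-anchored surface protein of upper epidermal layers, stood at -0.17 ± 0.036 (adjusted p = 0.000539) and was lower on all 7 days. CNFN, cornifelin, an envelope component, stood at 0.17 ± 0.046 (adjusted p = 0.0057), and on day 4 its controls read 5.57, 5.51 and 5.50 against 5.80, 5.76 and 6.02. The arms did not overlap on that day, although over the week they did. IVL, the textbook envelope precursor, gave 0.01 ± 0.058 (adjusted p = 0.927), with control arrays from 3.92 to 4.76 and cetuximab arrays from 3.91 to 4.46. CALML5, a calmodulin-like skin protein, gave -0.02 ± 0.071. CNFN did not pass when replicate 1 (adjusted p = 0.0912) or replicate 3 (adjusted p = 0.197) was left out, nor did LYPD3 when replicate 2 was (adjusted p = 0.122).

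Transglutaminases cross-link the envelope, and TGM1 is the membrane-anchored keratinocyte enzyme. TGM1 was higher by 0.19 ± 0.051 (adjusted p = 0.00723), but not through the whole week. On day 1 its controls read 4.53, 4.36 and 4.49 and its cetuximab arrays 5.23, 4.81 and 4.82, with no overlap. The difference was 0.49 on day 1 and 0.50 on day 3, both called, and on days 6 and 7 it was negative, at -0.36 and -0.06. Without day 1 or without day 3 the week's difference was 0.13 and was no longer called, and the call was also lost without replicate 1 (adjusted p = 0.0856) and without replicate 2 (adjusted p = 0.0677). TGM2, the tissue transglutaminase, differed over the week by -0.03 ± 0.038, which joins -0.43 on day 1 with positive values on days 3 to 6. TGM3 and TGM5 gave 0.0068 ± 0.057 and 0.07 ± 0.054.

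PI3, which encodes the elastase inhibitor elafin, itself a transglutaminase substrate, gave the largest difference of any member on a single day. Its control arrays read 5.84, 5.70 and 5.97 on day 4 and 8.93, 8.95 and 8.97 on day 7, and its cetuximab arrays read 6.57, 6.49 and 6.71 on day 4 and 9.73, 9.78 and 9.81 on day 7. On days 1 to 3 the arms differed by -0.27, -0.14 and -0.01, none of them called. On days 4 to 7 all 3 cetuximab arrays lay above all 3 controls and the differences were 0.76, 0.72, 0.75 and 0.82, all called. Over the week the mean difference was 0.38 ± 0.046 (adjusted p = 1.46e-09). SLPI, which encodes the related secretory leukocyte protease inhibitor, was higher by 0.11 ± 0.031 (adjusted p = 0.0123), a call lost without replicate 1 (adjusted p = 0.222) and without replicate 3 (adjusted p = 0.307). The cystatins, inhibitors of cathepsins, gave -0.11 ± 0.025 for CSTB (adjusted p = 0.000821, lower on all 7 days) and -0.02 ± 0.038 for CSTA.

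The S100 genes encode calcium-binding proteins, of which S100A8 and S100A9 pair as calprotectin. S100A2 was lower, at -0.20 ± 0.039 (adjusted p = 8.23e-05), with control arrays of 9.23, 9.74 and 10.26 (lowest, median, highest) against 9.13, 9.42 and 10.22. Its mean was below the control on all 7 days. S100A9 gave 0.07 ± 0.038 (adjusted p = 0.23) over the week, with a called difference of 0.57 on day 4 alone. On that day its controls read 7.33, 7.38 and 7.29 and its cetuximab arrays 7.86, 7.90 and 7.94, so the arms were apart, whereas on day 5 the order was the opposite, at -0.19. S100A8 gave 0.13 ± 0.058 (adjusted p = 0.142).

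Desmosome calls over days 1 to 7 are given below for cadherins and plaque proteins, against 5.96% of all genes lower and 7.39% higher. Whether the 2 groups differ was not tested. Of 4 cadherins, DSC2 alone was called, at 0.14 ± 0.047 (adjusted p = 0.0367). DSG2, DSG3 and DSC3 gave 0.0094, -0.02 and 0.01. Among the 5 plaque genes 3 were lower and none was higher. The plakophilin genes PKP3 and PKP1 stood at -0.24 ± 0.050 (adjusted p = 0.000295) and -0.14 ± 0.036 (adjusted p = 0.00508), and JUP, plakoglobin, at -0.11 ± 0.034 (adjusted p = 0.0169). The second, dimmer probes of PKP3 and PKP1 gave 0.05 and 0.13, whereas the other 2 JUP probes gave -0.28 and -0.17. With the probes of each gene averaged, PKP3 and PKP1 were not called (adjusted p = 0.134 and 0.998). DSP, desmoplakin, gave -0.08 ± 0.049 and PKP2 0.05 ± 0.035, neither called. With replicate 2 left out JUP and PKP1 did not pass (adjusted p = 0.538 and 0.239), and DSC2 did not pass without replicate 1 or 2 (adjusted p = 0.162 and 0.42). The plakins that tie the envelope to filaments and membrane, PPL and EVPL, gave -0.10 ± 0.040 (adjusted p = 0.077) and -0.07 ± 0.041 (adjusted p = 0.27).

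**Figure D3:**
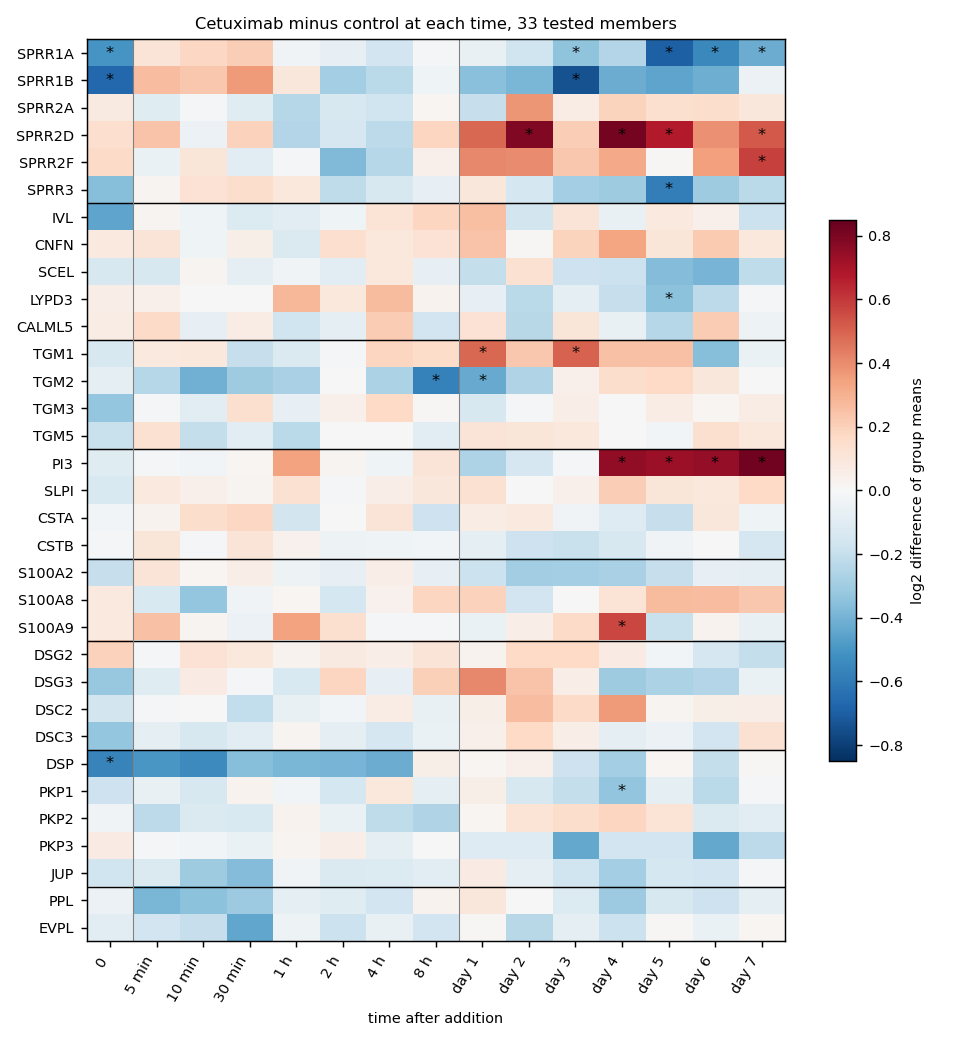
Log2 difference, cetuximab minus control, for the 33 tested members (rows, grouped by role) at the 15 times (columns); red is higher and blue lower with cetuximab, and an asterisk marks adjusted p under 0.05 at that time. SPRR1B, SPRR1A and DSP carry the 3 calls at time 0, and PI3 is called on days 4 to 7.

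The second question was whether the arms differed in the first hours. Averaged over 5 min to 8 h, 6 members were lower with cetuximab and none was higher, against 5.96% of all genes lower and 4.09% higher. All but the transglutaminase TGM2 belong to the desmosome plaque or the plakins. DSP stood at -0.37 ± 0.049 (adjusted p = 1.24e-07), while its 2 other probes gave -0.12 and -0.18 (adjusted p = 0.295 and 0.155 in a fit over all probes). At 10 min its control arrays read 8.54, 8.54 and 8.48 and its cetuximab arrays 7.96, 7.85 and 8.13, and at 4 h they read 8.48, 8.58 and 8.73 against 8.05, 8.19 and 8.29. All 3 cetuximab arrays were below all 3 controls at 6 of the 7 early times, a separation whose share over all genes was not counted. At 8 h, when the controls had dropped to 7.56, 7.77 and 7.65, the cetuximab arrays read 7.70, 7.74 and 7.69 and the arms overlapped.

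TGM2 stood at -0.30 ± 0.038 (adjusted p = 7.94e-08), and its difference at 8 h, -0.57 (adjusted p = 0.00105), was the only one of 231 member and early time pairs called, or 0.433% against 0.439% of all gene and early time pairs. At 8 h the controls read 10.17, 10.22 and 10.22 and the cetuximab arrays 9.64, 9.48 and 9.77, so that both arms had risen from time 0 and the control arm further. The other 2 TGM2 probes gave -0.07 and -0.12 over the early times. PPL, EVPL, JUP and PKP2 were lower by less, at -0.20, -0.18, -0.17 and -0.14 (adjusted p at most 0.00438). Without replicate 2 only 2 of the 6 members were called, and PPL, EVPL and JUP had adjusted p of 0.0837, 0.0732 and 0.0914. The small proline-rich genes, by contrast, had no call in either direction in this window, with SPRR1B at 0.06 ± 0.054 and SPRR1A at 0.03 ± 0.034.

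The windows themselves differed for 13 members, 7 more negative and 6 more positive late than early, against 2.76% and 4.23% of all genes. The change was -0.46 ± 0.076 for SPRR1B and -0.39 ± 0.048 for SPRR1A, and 0.56 ± 0.076 for SPRR2D and 0.42 ± 0.080 for SPRR2F. Without replicate 3 the change of SPRR2F had adjusted p = 0.0564, and without replicate 2 the count fell to 6. DSP and TGM2 moved by 0.28 ± 0.069 and 0.26 ± 0.054 and lay nearer to 0 late than early.

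The arms already differed at time 0, when the labels place the start of treatment. Of the tested members 3 were lower in the cetuximab arm and none was higher, against 1.21% of all genes lower and 1.27% higher. SPRR1B read 6.43, 6.28 and 6.35 in controls and 5.71, 5.41 and 5.95 in the cetuximab arm, a difference of -0.66 ± 0.142 (adjusted p = 0.00235). DSP read 8.50, 8.44 and 8.56 against 7.90, 7.82 and 8.09, or -0.57 ± 0.128 (adjusted p = 0.00431), and its other probes gave -0.10 and -0.46. SPRR1A read 9.45, 9.32 and 9.57 against 8.99, 8.73 and 9.11, or -0.50 ± 0.089 (adjusted p = 0.000146). None of the 3 overlapped between the arms. The same was true of SPRR3, SCEL, S100A2, DSC3, PKP1 and JUP, all lower in the cetuximab arm and not called. The share of all genes so separated at time 0 was not counted. With the 6 arrays of time 0 alone, only DSP was called, and with cetuximab replicate 2 of time 0 left out, only SPRR1A, while 5 members were called without cetuximab replicate 3. Without replicate 2 in every group none of the 33 was called.

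At 5 min the picture for SPRR1B and SPRR1A was another. SPRR1B then read 6.48, 6.75 and 6.75 in controls and 7.04, 6.86 and 6.87 with cetuximab, above the controls with no overlap. DSP kept its gap, at 8.65, 8.47 and 8.48 against 8.01, 8.01 and 8.10. When each difference was taken relative to that at time 0, 2 members were called over days 1 to 7: PI3 at 0.48 (adjusted p = 0.0216) and DSP at 0.49 (adjusted p = 0.0274). On that base the late differences of SPRR1B, SPRR1A and SPRR3 turned positive, at 0.26, 0.15 and 0.11, none of them called, and those of SPRR2D and SPRR2F were 0.41 and 0.17, also not called. The late decreases of the small proline-rich genes are therefore decreases against controls of the same day and not against the gap at time 0. Over the early times the same base gave 0.72 for SPRR1B (adjusted p = 0.00264).

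Changes with culture in the control arm reached larger sizes than the differences between the arms. Between time 0 and days 1 to 7 of the controls, 8 members fell and 10 rose, against 21.1% of all genes lower and 24.9% higher, a share of 54.5% against 46.1%. The members that fell were SPRR3 (-1.30 ± 0.086), SPRR1A (-1.08 ± 0.067), LYPD3 (-0.70), S100A2 (-0.69), PPL (-0.69), DSP (-0.66), EVPL (-0.36) and JUP (-0.28). SPRR1A went from 9.45, 9.32 and 9.57 at time 0 to 10.21, 9.93 and 10.00 at 4 h and then to 7.84, 7.81 and 7.89 on day 1, a drop in which no array of day 1 came near those of the first hours. SPRR3 read 7.62, 7.63 and 7.65 at time 0, 8.66, 8.77 and 8.52 at 4 h, and 5.97, 6.03 and 6.04 on day 4.

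The members that rose were led by S100A9, at 2.06 ± 0.076 (adjusted p = 2.65e-35), followed by CNFN (0.93), TGM1 (0.65), TGM2 (0.65), DSG3 (0.52), PI3 (0.51), SPRR2D (0.48), CSTA (0.47), SLPI (0.34) and SCEL (0.31). S100A9 read 5.67, 5.82 and 5.68 at time 0 and 9.75, 9.46 and 9.41 on day 7 in controls, and 5.79, 5.77 and 5.86 and then 9.38, 9.43 and 9.61 with cetuximab. The arms overlapped on day 7. S100A8, the partner of S100A9, reached 5.16, 5.12 and 5.04 in controls on day 7 and was not called for the week as a whole (0.21 ± 0.115, adjusted p = 0.136). The rise of TGM2 rested on its brightest probe, since the others gave -0.11 and 0.06 over the same comparison. The second SCEL probe gave 0.18 there (adjusted p = 0.274 in a fit over all probes).

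**Figure D4:**
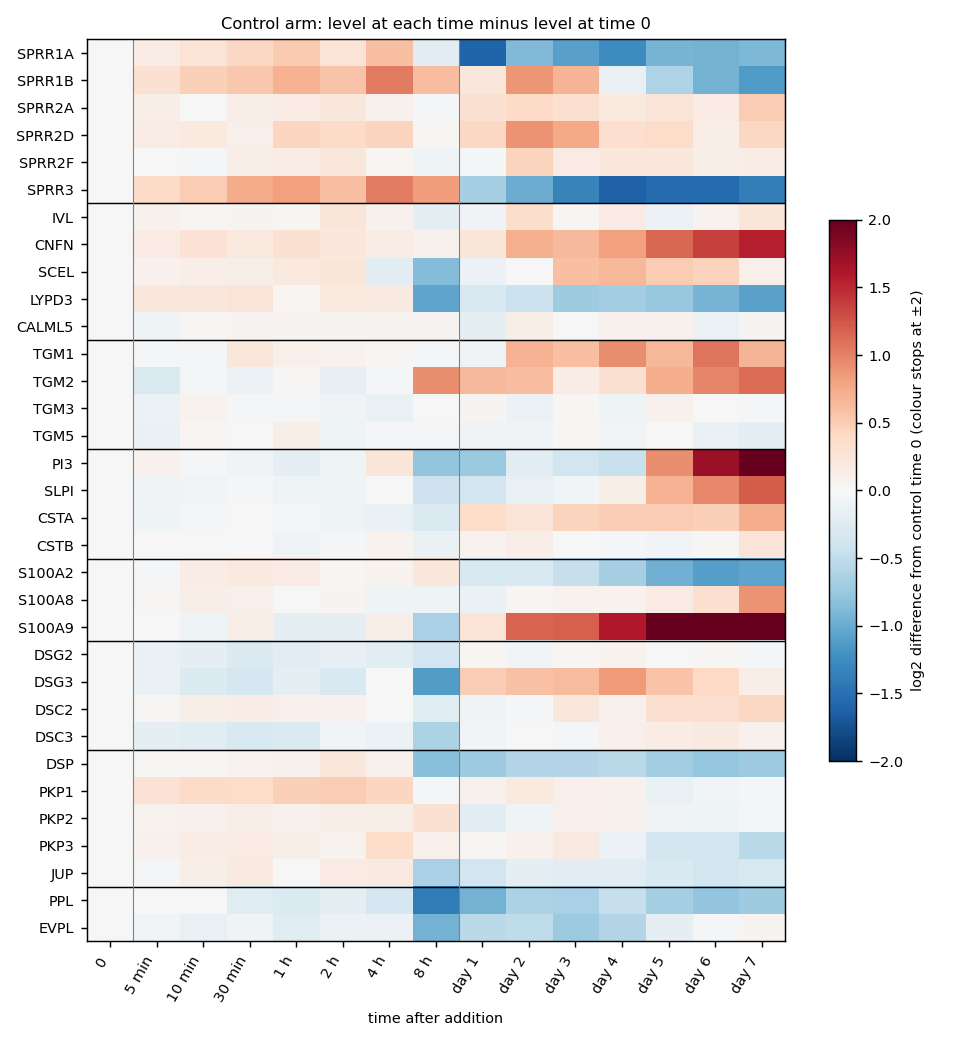
Control arm only: log2 level of each tested member at each time minus its level at time 0 (group means of 3 arrays), red for higher and blue for lower. PPL, DSG3 and LYPD3 dip at 8 h by over 1 log2 unit, and S100A9 rises most by day 7.

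The 8 h arrays marked a low point for many members. In controls, 13 members were lower at 8 h than at time 0 and 4 were higher, against 16% of all genes lower and 19% higher. The desmosome and plakin genes were prominent, with PPL at -1.41 ± 0.105, DSG3 at -1.11 ± 0.146, EVPL at -0.95, DSP at -0.84, JUP at -0.65, DSC3 at -0.63 and DSG2 at -0.38. LYPD3 (-1.06), SCEL (-0.87), PI3 (-0.80), S100A9 (-0.66), SLPI (-0.42) and CSTA (-0.29) fell too. At 4 h the control means of all 13 had still been within 0.34 of time 0, and in the cetuximab arm all 13 means were likewise lower at 8 h than at time 0. DSG3, the desmoglein of basal keratinocytes, shows the course: its controls read 6.35, 6.54 and 6.30 at 4 h, 5.09, 5.34 and 5.43 at 8 h and 6.61, 7.06 and 7.00 on day 1. TGM2 (0.93), SPRR3 (0.83), SPRR1B (0.62) and PKP2 (0.31) were the members that were higher at 8 h.

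Through days 1 to 7, slopes in the controls were called for 21 members, 8 downward and 13 upward, against 22.7% of all genes downward and 26.2% upward. In the cetuximab arm 19 were called, 9 downward and 10 upward, against 23.8% and 26%. In both arms 17 slopes were called, all 17 in the same direction. The same count over all genes was not taken. Only 1.34% of all genes differed in slope between the arms, so a shared direction is not particular to the members. S100A9 rose by 0.60 ± 0.013 per day in controls and 0.59 ± 0.013 with cetuximab, SLPI by 0.27 and 0.29, CNFN by 0.21 and 0.20 and S100A8 by 0.13 and 0.18. SPRR1B fell by 0.32 per day in controls and 0.28 with cetuximab, SPRR3 by 0.12 and 0.18, PKP3 by 0.11 and 0.14, and S100A2 by 0.16 and 0.13.

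The slopes differed between the arms for 4 members, against 1.34% of all genes in either direction. PI3 rose by 0.55 ± 0.016 per day in controls and 0.76 ± 0.016 with cetuximab, a difference of 0.21 ± 0.023 (adjusted p = 2.58e-09). TGM1 rose by 0.11 per day in controls and gave -0.00076 with cetuximab, a difference of -0.11 ± 0.026 (adjusted p = 0.00874). SPRR1A rose by 0.08 per day in controls and gave -0.0026 with cetuximab, a difference of -0.08 ± 0.017 (adjusted p = 0.00327). TGM2 rose by 0.10 and 0.17 per day, a difference of 0.08 ± 0.019 (adjusted p = 0.0205). Its other 2 probes had slopes of -0.30 and -0.11 per day in controls and, less steep, -0.20 and -0.028 with cetuximab. The difference in slope was not tested for these 2 probes. The difference in slope was not called without replicate 2 or 3 for SPRR1A (adjusted p = 0.326 and 0.1), without replicate 1 or 3 for TGM1 (0.338 and 0.121), or without any one of the 3 for TGM2 (0.17 to 0.252).

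**Figure D5:**
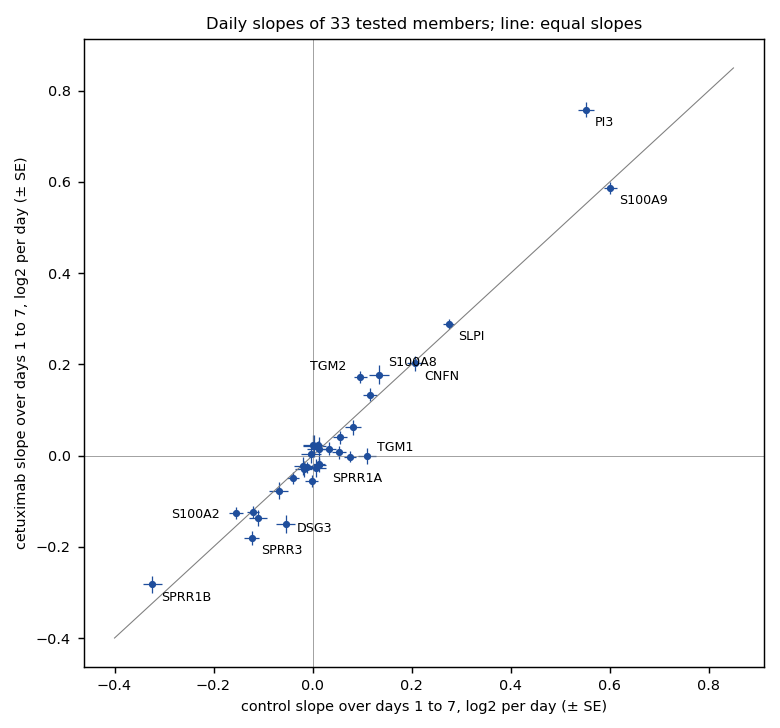
Slope of each tested member over days 1 to 7 in the control arm (x axis) and the cetuximab arm (y axis), log2 per day with SE bars; the diagonal marks equal slopes. PI3 lies above the line, at 0.76 against 0.55, and S100A9 lies close to it, at 0.59 against 0.60.

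Neighbouring genes and related lists did not follow the members as one. Over days 1 to 7, 5.96% of all genes were lower with cetuximab and 7.39% higher, the shares to set beside the counts below. The epidermal differentiation complex on chromosome 1, from S100A10 to S100A1, holds 63 protein-coding genes in the annotation, of which 25 were tested and 7 called over days 1 to 7. Of its 10 members 4 were lower and 2 higher, and of its 15 other genes 1 was lower, S100A3 at -0.18. Of the desmosomal cadherins on chromosome 18, 4 genes were tested and DSC2 alone was called. Among 15 other tested envelope and barrier genes, of 52 listed, 5 were lower and none was higher, with ECM1, an extracellular matrix protein of skin, at -0.52, CLCA2 at -0.35 and TMPRSS11D at -0.28. GSDMA gave -0.26 and was not called. Of 6 hemidesmosome genes, which anchor cells to the basement membrane, ITGB4 (-0.23) and PLEC (-0.13) were lower and CD151 (0.13) higher. Of 19 regulators of squamous differentiation 3 were lower and 2 higher, with GATA3 at 0.19, BARX2 at -0.15 and CEBPA at -0.12. Among the epithelial markers KRT7 (0.11) and MUC1 (0.30) were higher with cetuximab over the same days, among leukocyte markers CD68 was lower (-0.21), and among fibroblast markers LUM, at 4.41 and 4.65 in the arms, was higher by 0.24. The part of these genes in the results was not tested. CLCA2 and LUM had means over all arrays of 4.25 and 4.26, just over the limit for dim probes. Each of the 2 passed it through the arm where it was higher.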

How the data were processed

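The 90 arrays were Illumina HumanHT-12 v4 BeadChips, and the deposited values were used as log2 levels, ranging from 0.26 to 13.8. How the authors corrected background and normalized the arrays, and their log base, was not stated anywhere in the material read (the processing notes name limma), and the values' range and distribution were what set the scale as log2. Array medians lay between 4.29 and 4.36. Every column was mapped to a sample (0 left unmapped). Of 47292 probes 30096 named 1 gene, 8 named several and 17188 none in the platform annotation. For each gene the probe with the highest mean was kept, and genes with a mean under 4.24 were left out. A model with 1 mean per arm and time (30 groups, 60 residual degrees of freedom) was fitted in limma 3.58.1 (R 4.3.3) with empirical Bayes moderation. P-values were two-sided and adjusted by Benjamini-Hochberg over all 12735 genes, and 0.05 was the threshold. The number of arrays limits the precision. The script was tested on simulated data. All 40 members are accounted for, and those named in full are the called members with the largest differences per comparison and fixed key genes. The members and lists were chosen with earlier results of these data known.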

Additional observations from a re-analysis of the deposited data

Results flagged for a closer look

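For 13 members the difference between the arms over days 1 to 7 departed from that over 5 min to 8 h when the change itself was tested. It became more negative for SPRR1B (-0.46), SPRR1A (-0.39), LYPD3 (-0.27), SPRR3 (-0.25), PKP3 (-0.22), S100A2 (-0.21) and CSTB (-0.13). It became more positive for SPRR2D (0.56), SPRR2F (0.42), PI3 (0.32), DSP (0.28), TGM2 (0.26) and PKP2 (0.19). In the test of the daily slopes, 4 members differed between cetuximab and control, with PI3 at 0.21, TGM1 at -0.11, SPRR1A at -0.079 and TGM2 at 0.076 log2 per day.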

How the results depend on the processing

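The choice of reference mattered most. Relative to the difference at time 0, the late window held 2 called members in place of 17 and the early window 2 in place of 6. Values that changed sign on that base were DSP (early window 0.20, late window 0.49), JUP (0.0023 and 0.056), and in the late window PKP1 (0.038), S100A2 (0.00056), SPRR1A (0.15), SPRR1B (0.26) and SPRR3 (0.11). The time 0 arrays, 3 per arm, carry all of that reference.

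Counts at time 0, 3 as reported, were 5 when all probes per gene were averaged, 5 with array weights, 1 with the arrays of the groups compared alone and 5 with a random replicate block within time. Early time calls, 1 as reported, were 4 with a stricter filter on dim probes, 7 with array weights, 3 with a trend and robust prior, 0 with the compared arrays alone and 4 with the random replicate block. With the compared arrays alone day calls went from 21 to 9. With the mean of control time 0 to 2 h as base, an alternative chosen after seeing the data, the control course had 28 called members in place of 18. With its probes averaged the TGM2 slope with cetuximab was -0.019.

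Leaving out 1 replicate number gave 11 to 17 calls in the late window, 2 to 6 early and 6 to 13 for late minus early. It gave 1 to 4 for the slope difference, 10 to 21 for the day calls and 0 to 1 for the early time calls. The upper end of each range came without number 4, which labels only an array of cetuximab at 2 h and an array of control at 4 h. Without number 1, 2 or 3 the late counts were 14, 11 and 15 and the early counts 5, 2 and 5. Late minus early counts were then 9, 6 and 10, slope difference counts 2, 2 and 1, and day calls 16, 10 and 12. At time 0, leaving out 1 replicate number gave 0 to 3 calls. Leaving out single arrays of time 0, also chosen after seeing the data, gave 1 to 5. The lowest late, early and time 0 counts came without replicate 2. Among single late calls, DSC2, JUP, TGM1, CNFN and SLPI each lost theirs under several settings, and LYPD3 without replicate 2. PKP1 and PKP3 lost theirs with probes averaged. The fixed replicate block left 17 late, 6 early and 21 day calls, and the random one 18, 7 and 27. Same-numbered arrays of the arms correlated at -0.04 to 0.57 in their deviations. Of 43 pairs 37 correlated best with their own number, a hint of pairing from the data and not from the labels. The numbers were treated as pairs only if every pair exceeded 0.1, and 26 of 43 did, so the fit without the block was kept as reported.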
